A study of Mus musculus with 6 samples.

Results

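Tubulin isotypes are the products of separate genes for α- and β-tubulin, and 10 of them were examined in mouse N2A neuroblastoma cells, 4 α genes (Tuba1a, Tuba1b, Tuba1c and Tuba4a) and 6 β genes (Tubb2a, Tubb2b, Tubb3, Tubb4b, Tubb5 and Tubb6). Each gene was to be represented by its brightest transcript cluster, the array's unit for a gene, among those annotated to that gene alone. Of the 10 genes, 6 had such a cluster, 1 of them an α gene (Tuba4a) and 5 of them β genes (Tubb2a, Tubb2b, Tubb4b, Tubb5 and Tubb6), out of 14807 genes named in this way on the array. Tuba1a, Tuba1b, Tuba1c and Tubb3 appeared only on clusters annotated to several genes, so their values are given by cluster, written with all the genes it carries (Tubb3/Mc1r), and are not assigned to any gene. Control cells were treated with an empty vector and the others with a short hairpin RNA (shRNA) against PTB, the polypyrimidine tract binding protein encoded by Ptbp1, with 3 biological replicates in each group. The controls carried the vector without a hairpin, so loss of PTB and expression of a hairpin cannot be told apart. RNA was hybridised to Affymetrix mouse exon arrays, and the values are gene-level signals that do not show which exons were used.

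α- and β-tubulin join into heterodimers that polymerise into microtubules, the tracks and struts of axons, mitotic spindles and cilia. The isotypes differ mainly in their acidic C-terminal tails, where enzymes add and remove tyrosine, glutamate and glycine and where many motors and associated proteins bind. Tubb3 is the classic neuron-restricted β isotype, Tuba1a, Tubb2a and Tubb2b are abundant in developing neurons, and Tuba1b, Tubb4b, Tubb5 and Tubb6 are used much more widely. Cells also adjust tubulin RNA to the pool of free dimers: the ribosome-associated factor TTC5 recognises the first residues of a nascent tubulin chain and triggers decay of its mRNA.

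The promoters of 3 β isotype genes, Tubb3, Tubb5 and Tubb4b, are printed to show how the start regions of this family differ in short core motifs. Each window runs from 250 bases before to 50 bases after the annotated start, from RefSeq on GRCm38.p6, at chr8:123411303-123411602 on the plus strand for Tubb3, chr17:35838252-35838551 on the minus strand for Tubb5 and chr2:25224653-25224952 on the minus strand for Tubb4b. Capitals mark every match, on either strand, to the TATA-box letters TATAA, to the CCAAT box, to the GC box GGGCGG, to the cyclic AMP response element TGACGTCA and to the E box with the letters CACGTG.
Tubb3: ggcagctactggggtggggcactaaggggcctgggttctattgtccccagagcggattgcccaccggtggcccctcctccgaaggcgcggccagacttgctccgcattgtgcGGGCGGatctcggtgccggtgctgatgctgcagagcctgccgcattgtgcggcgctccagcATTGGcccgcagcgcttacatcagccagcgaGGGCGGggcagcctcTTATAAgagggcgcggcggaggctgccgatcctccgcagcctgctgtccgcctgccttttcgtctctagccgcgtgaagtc
Tubb5: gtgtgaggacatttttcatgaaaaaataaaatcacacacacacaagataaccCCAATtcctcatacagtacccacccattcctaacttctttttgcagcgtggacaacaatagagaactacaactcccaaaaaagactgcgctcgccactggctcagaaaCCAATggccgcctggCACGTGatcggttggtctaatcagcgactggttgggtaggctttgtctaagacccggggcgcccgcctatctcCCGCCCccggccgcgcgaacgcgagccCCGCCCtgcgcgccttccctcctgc
Tubb4b: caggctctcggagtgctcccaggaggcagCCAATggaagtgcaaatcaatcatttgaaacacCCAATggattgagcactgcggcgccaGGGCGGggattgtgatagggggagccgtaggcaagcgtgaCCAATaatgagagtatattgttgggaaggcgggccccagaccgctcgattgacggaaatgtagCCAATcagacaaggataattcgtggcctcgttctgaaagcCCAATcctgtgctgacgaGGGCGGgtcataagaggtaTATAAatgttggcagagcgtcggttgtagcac

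The 3 windows held different sets of these letters. Tubb3 had a TATAA match beginning 31 bases before the start, read on both strands and overlapping itself, with 1 CCAAT and 2 GC boxes upstream. Tubb5 had no TATAA match, 2 CCAAT, 2 GC boxes and the E box. Tubb4b held 5 CCAAT matches, a count that 0.271% of the 32817 mouse promoter windows reached or passed, and a TATAA match 18 bases after its annotated start. The share of all windows with at least 1 match was 24.9% for TATAA, 37.4% for CCAAT, 35.6% for the GC box, 1.79% for the response element and 7.15% for the E box. These are matches of letters and were not tested as binding sites.

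The labels and the overall level of the arrays were examined first. Ptbp1, the targeted gene, gave signals of 3387, 4203 and 4404 in the controls and of 1307, 1040 and 1957 under PTB shRNA, with no overlap. Of 10 measured N2A and sympathoadrenal neuroblastoma markers 7 had a mean signal above the typical array median, led by Gap43 and Stmn2. Th (21 to 62 over the arrays), Nefl (-2 to 25) and Nefm (13 to 32) were dim and lay below that median. All 27 measured markers of fibroblasts, glia, leukocytes, epithelium and muscle lay below it. Within the fibroblast list, whose summed signal was 229 to 284 in the controls and 300 to 471 under PTB shRNA, only Pdgfra passed the test, upward. Sums were 71 to 79 against 87 to 120 for leukocytes and 129 to 183 against 176 to 338 for glia. They were 114 to 156 against 156 to 172 for epithelium and 122 to 195 against 138 to 200 for muscle. No marker of these other lists passed. The sums are on the deposited scale, where dim clusters as a class were higher under PTB shRNA, as given below. Among the neuroblastoma markers only Gata3 passed, upward (log2 difference 0.87, limma, adjusted p = 0.0384). Summed signal per array was 10651755 to 12509077 in the controls and 9098056 to 10440265 under PTB shRNA, while array medians lay between 183 and 206. Bright clusters were therefore lower as a class with PTB shRNA: the median log2 difference was -0.24 in the brightest 10% of clusters, -0.10 among clusters about as bright as Tuba4a, and up to 0.22 among dim clusters. All the tubulin clusters except those of Tuba4a and Tubb2a and 2 dim shared ones lay in the brightest 10%. The differences of the isotypes and of the bright shared clusters are therefore given on the deposited scale and after quantile and cyclic loess normalization. These normalizations bring the median difference of the brightest 10% to 0.02 and 0.01. Differences are PTB shRNA minus empty vector in log2(signal + 16), and adjusted p-values are corrected over all 17213 clusters.

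Setting PTB shRNA against empty vector asks which tubulin RNAs differ in level between these cells. Tubb6 fell, to less signal on every PTB shRNA array than on any control array, while no other isotype with a cluster of its own passed the test. Tubb2b, Tubb4b and Tubb5 had lower signals in every PTB shRNA array than in any empty vector array, by amounts that shrank when the brightness-dependent shift was removed. The difference of Tubb6 shrank as well. Tuba4a and Tubb2a overlapped between the groups. In these bulk samples, fewer cells of a type and less RNA per cell cannot be told apart.

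Tubb6, a β isotype that is widely expressed at low levels and is known to loosen the microtubule network when overproduced in hamster cells, measured 2454, 2362 and 2809 in the controls and 1133, 1153 and 1324 under PTB shRNA. The groups were far apart, and the highest PTB shRNA array had less signal than the lowest empty vector array. The mean fell from 2542 ± 236 to 1203 ± 105 (SD, n = 3 arrays per group), which is 2.10-fold lower on the fitted scale, a log2 difference of -1.07 ± 0.11 (SE) whose 95% confidence interval ran from -1.34 to -0.79 (limma, adjusted p = 0.0257). After quantile normalization the log2 difference was -0.86 (adjusted p = 0.0254) and after cyclic loess normalization -0.84 (limma, adjusted p = 0.0212). With any 1 of the 6 arrays left out it lay between -1.14 and -0.99, and the adjusted p, between 0.0536 without PTB shRNA replicate 3 and 0.112 without PTB shRNA replicate 2, no longer passed. No cluster of the whole array passed in those smaller fits.

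Among the 6 isotypes with a cluster of their own, 1 fell and 0 rose at an adjusted p under 0.05 (limma), against 3.37% of all clusters lower and 1.36% higher, and 5.11% lower in the brightest 10%. At an unadjusted p under 0.05, 4 were lower and 0 higher, where 16.9% of all clusters were lower, 8.49% higher, and 34.4% of the brightest 10% lower. After quantile normalization the count was again 1 lower and 0 higher (2.85% and 2.94% of all clusters), as it was after cyclic loess normalization (2.64% and 2.52%). The median log2 difference of the 6 was -0.45 on the deposited scale, where the median of all clusters was 0.00, and -0.12 and -0.16 after quantile and cyclic loess normalization. Groups did not overlap, with PTB shRNA lower, for 4 of the 6. That pattern was seen in 19.0% of all clusters and in 39.1% of the brightest 10%, while 10.3% of all clusters did not overlap in the other direction.

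**Figure D1:**
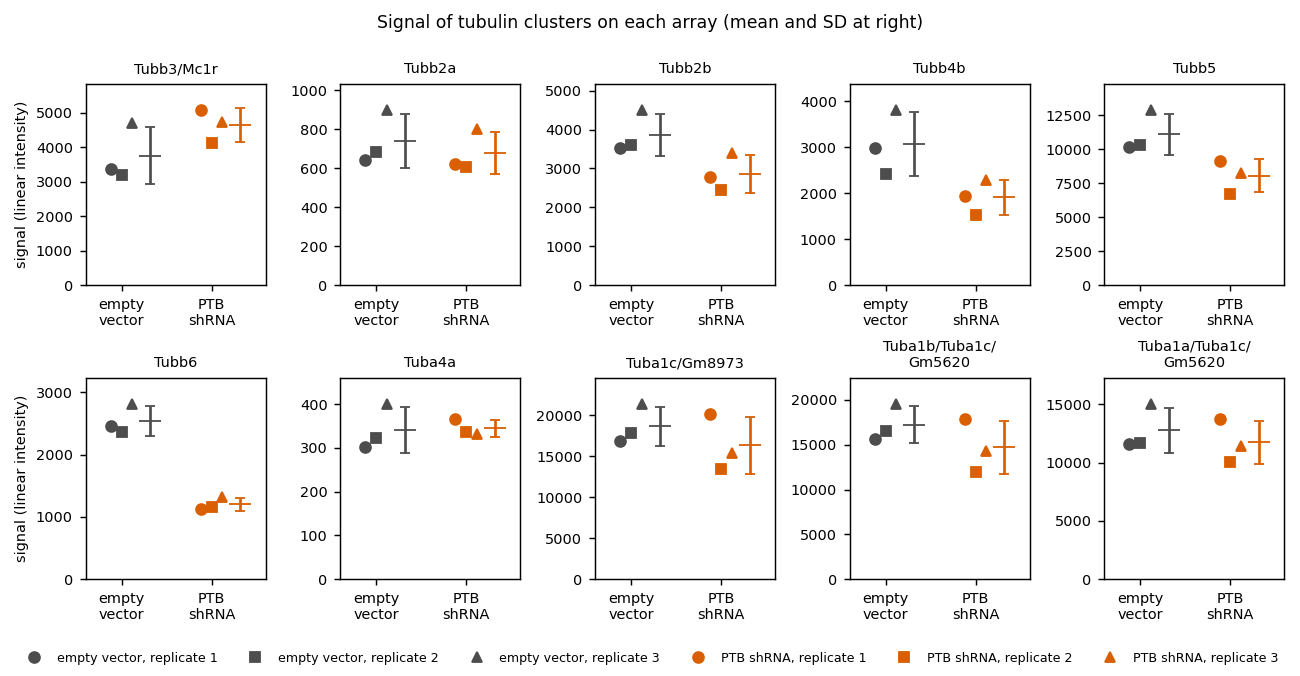
Signal (linear intensity, each vertical axis from 0) of 10 tubulin clusters on each of the 6 arrays, with points for arrays by replicate number and, to their right, the mean and SD of the 3 arrays of a group. Tubb6 sits between 1133 and 1324 with PTB shRNA, below all empty vector arrays, whereas the Tubb3/Mc1r cluster has a mean of 4648 with PTB shRNA against 3761, with arrays of the groups overlapping.

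Tubb4b, a broadly used β isotype that is also prominent in cilia, measured 2984, 2429 and 3803 in the controls and 1935, 1521 and 2289 under PTB shRNA. All the PTB shRNA arrays were below all the empty vector arrays, but the spread was wide within each group. The log2 difference of -0.67 had a confidence interval of -1.23 to -0.12 and did not pass (limma, adjusted p = 0.138). It was -0.45 after quantile normalization (adjusted p = 0.211) and -0.43 after cyclic loess normalization (limma, adjusted p = 0.212). A second, shared cluster annotated to Col19a1 and Tubb4b was dim, at 4 to 24 on all arrays, and carries no usable value for either gene.

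Tubb5, the main β isotype of dividing cells, was bright on every array, at 10155, 10270 and 12847 in the controls and 9159, 6732 and 8263 under PTB shRNA. The groups did not overlap. The log2 difference was -0.46 with an interval of -0.86 to -0.07 (limma, adjusted p = 0.149). After quantile normalization it was -0.06, with an interval of -0.21 to 0.10 (adjusted p = 0.637), and after cyclic loess normalization -0.16 (limma, adjusted p = 0.415). The signal difference of Tubb5 on the deposited scale thus became small once arrays were put on a common distribution. Whether the shift of bright clusters that such scaling removes came from the arrays or from the RNA was not tested.

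Tubb2b and Tubb2a are neighbouring, closely related genes of developing neurons, and human TUBB2B is mutated in malformations of the cortex. Tubb2b measured 3516, 3599 and 4492 in the controls and 2772, 2439 and 3401 under PTB shRNA, a log2 difference of -0.43 (interval -0.85 to -0.02, limma, adjusted p = 0.180). Its groups were separate but close, the lowest control array at 3516 and the highest PTB shRNA array at 3401, and the difference was -0.18 after quantile and -0.17 after cyclic loess normalization. Tubb2a measured 642, 682 and 896 against 623, 608 and 801, and its groups overlapped. Its log2 difference of -0.12 (interval -0.56 to 0.32, limma, adjusted p = 0.716) turned to 0.08 after quantile and 0.06 after cyclic loess normalization. The probes behind each cluster were not used here, so cross-hybridisation between such similar RNAs was not tested.

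Tuba4a, the only α isotype with a cluster of its own, encodes an α-tubulin that lacks the C-terminal tyrosine from the start. It measured 301, 323 and 400 in the controls and 366, 336 and 332 under PTB shRNA, so that the groups overlapped fully. The log2 difference was 0.02 with an interval of -0.29 to 0.34 (limma, adjusted p = 0.943), which leaves room for a change of about that size either way. It was 0.17 after quantile and 0.14 after cyclic loess normalization.

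**Figure D2:**
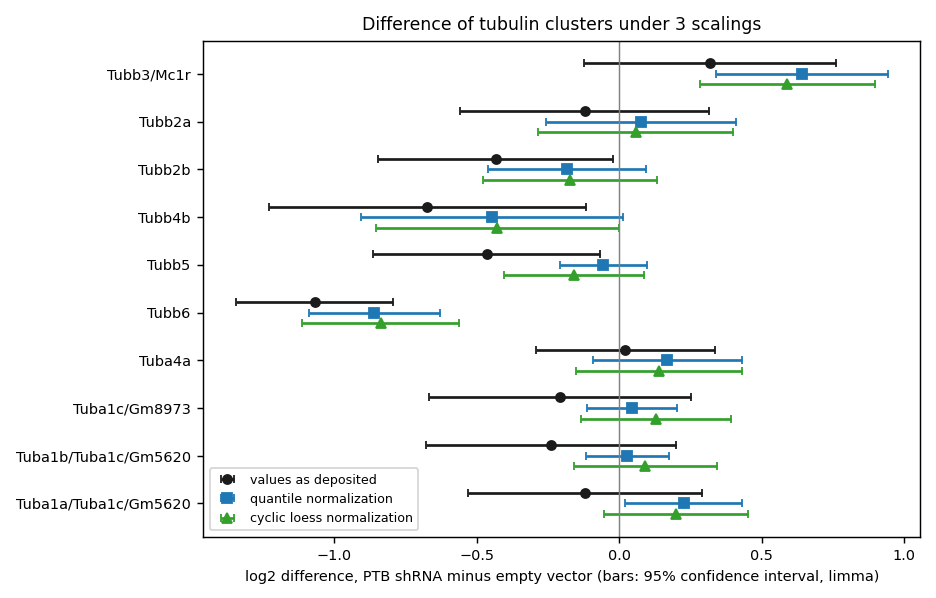
Log2 difference between PTB shRNA and empty vector (horizontal axis) of 10 tubulin clusters under the deposited scale, quantile normalization and cyclic loess normalization, with 95% confidence intervals from limma. Tubb6 moves from -1.07 to -0.86 after quantile and -0.84 after cyclic loess normalization. Tubb2b, Tubb4b and Tubb5 also move toward 0, and Tubb2a and the 3 bright Tuba1 clusters change sign.

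The remaining 4 isotypes were measured only together with other genes. The Tubb3/Mc1r cluster joins Tubb3 to its chromosomal neighbour Mc1r, a melanocortin receptor gene. It measured 3376, 3205 and 4702 in the controls and 5073, 4121 and 4750 under PTB shRNA. Empty vector replicates 1 and 2 were below all PTB shRNA arrays, and empty vector replicate 3 lay among them. The log2 difference was 0.32 (interval -0.12 to 0.76, limma, adjusted p = 0.328) on the deposited scale. It was 0.64 after quantile normalization (interval 0.34 to 0.94, adjusted p = 0.0464), which passed, and 0.59 after cyclic loess normalization (interval 0.28 to 0.90, limma, adjusted p = 0.0512), which did not. With any 1 array left out, the difference on the deposited scale lay between 0.22 without empty vector replicate 2 (adjusted p = 0.586) and 0.49 without empty vector replicate 3 (limma, adjusted p = 0.144).

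The bright clusters of the Tuba1 genes, which encode the main α-tubulins, did not pass the test on any of the 3 scales. The Tuba1c/Gm8973 cluster, shared with a pseudogene, measured 16810, 17812 and 21335 in the controls and 20190, 13377 and 15349 under PTB shRNA, where the highest signal on any array was 23431. Its groups overlapped, PTB shRNA replicate 1 being as bright as the controls. The log2 differences were -0.21 for Tuba1c/Gm8973, -0.24 for Tuba1b/Tuba1c/Gm5620 and -0.12 for Tuba1a/Tuba1c/Gm5620, with limma adjusted p-values between 0.456 and 0.702. All were positive after quantile normalization, at 0.05, 0.03 and 0.23, and after cyclic loess normalization, at 0.13, 0.09 and 0.20. On PTB shRNA replicate 2, Tuba1c/Gm8973 was at 13377 where the highest signal was 13699. Quantile normalization gives clusters of equal rank the same value on every array. A cluster near the top of each array is thus held to a small difference, whose sign says little. On the deposited scale the first ran from -0.37 without PTB shRNA replicate 1 to -0.08 without PTB shRNA replicate 2, and the second from -0.39 to -0.10 without the same arrays. A further cluster shared by Il31ra, Tuba1b, Tuba1c and Gm5620 was dim, at 30 to 54, with a difference of -0.09.

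Arrays of a group differed in a common way over the family. Empty vector replicate 3 was the brightest control array in 10 of the 10 tubulin clusters that were not dim, and PTB shRNA replicate 2 the dimmest PTB shRNA array in 8 of them. These arrays also had the highest and the lowest summed signal of all arrays. The spread of single clusters within a group thus moved with the overall brightness of the array, and its part in the differences was examined by the normalizations above and by ratios within an array.

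**Figure D3:**
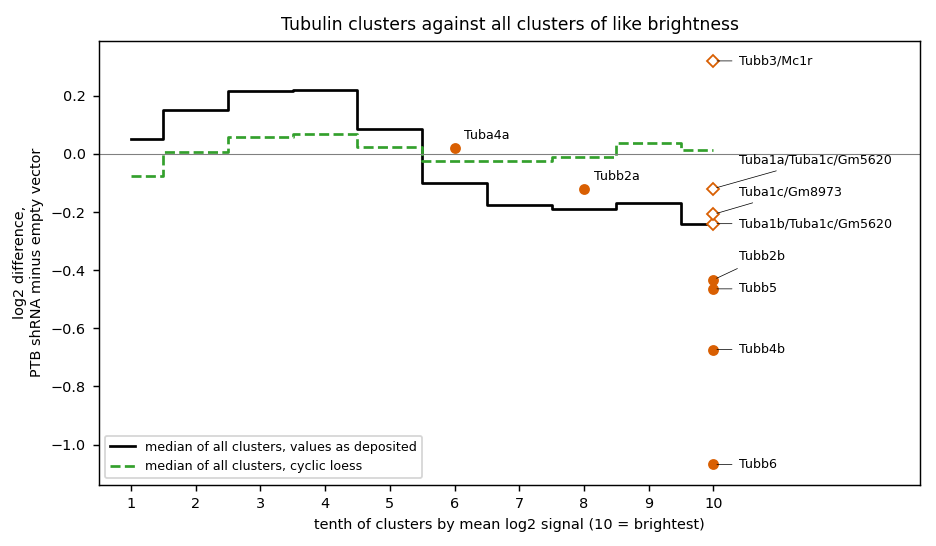
Log2 difference between PTB shRNA and empty vector on the deposited scale (vertical axis) of the tubulin clusters, filled circles for genes with their own cluster and open diamonds for shared clusters, by brightness, in steps of 10% of all clusters (horizontal axis, 10 = brightest). The black line is the median of all clusters in each step, which drops to -0.24 in the brightest, and the dashed line the same after cyclic loess normalization.

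A ratio of clusters within an array is not moved by a factor common to the whole array. A shift that depends on brightness can still move it where the clusters differ in brightness. The log2 ratio of the Tubb3/Mc1r cluster to Tubb5 was -1.58, -1.68 and -1.45 in the controls and -0.85, -0.71 and -0.80 under PTB shRNA. The groups did not overlap, and the ratio was 0.78 higher with PTB shRNA. Against Tubb6 the same ratio was 0.46, 0.44 and 0.74 in the controls and 2.15, 1.82 and 1.83 under PTB shRNA, a change of 1.39. Against Tubb4b it changed by 0.99, from 0.18, 0.40 and 0.30 to 1.38, 1.43 and 1.05. Changes in the ratio to Tubb2b, Tubb2a and Tuba4a were 0.75, 0.44 and 0.30. For Tuba4a, a dimmer cluster, the change was 0.47 after quantile and 0.45 after cyclic loess normalization.

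Against the 3 bright Tuba1 clusters the change was 0.44 to 0.56. The ratio was higher in every PTB shRNA array than in every empty vector array for all 9 clusters compared. All 9 ratios share the Tubb3/Mc1r cluster, so they are not separate observations. Of the brightest 10% of clusters, 39.1% were themselves lower under PTB shRNA without overlap. How often the ratio to clusters outside the tubulins separates the groups was not examined. An exact permutation test (two-sided) of each gave p = 0.1 and an adjusted p of 0.1 over the 9 ratios, which is the smallest value that 3 arrays against 3 can give, so the design cannot pass the threshold. All 9 changes kept their sign after quantile and cyclic loess normalization, and the smallest, 0.39, was the ratio to Tuba1a/Tuba1c/Gm5620 after cyclic loess normalization. A ratio shows unequal change of its parts, and whether Tubb3 or Mc1r carries it was not tested.

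**Figure D4:**
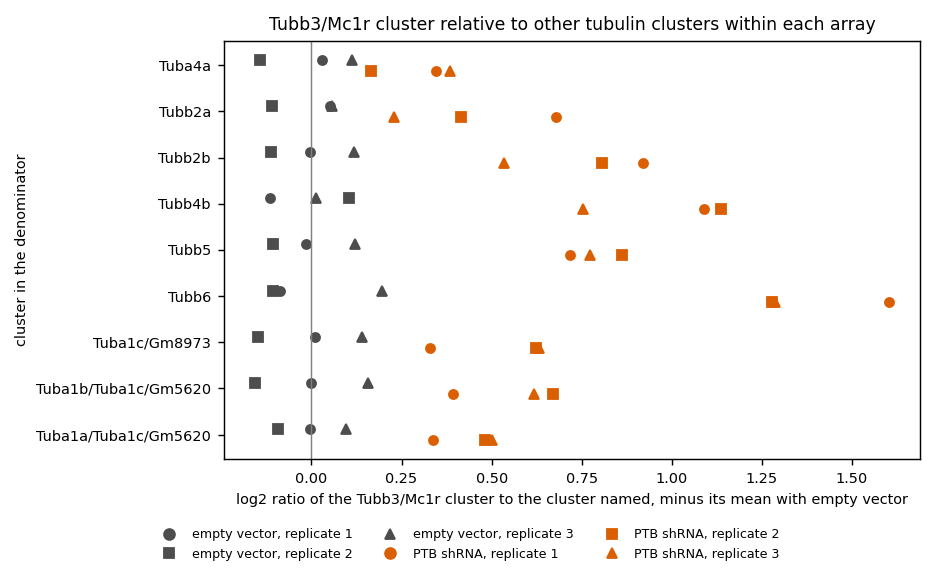
Log2 ratio of the Tubb3/Mc1r cluster to 9 other tubulin clusters within each array, minus the mean of the 3 empty vector arrays for that ratio (horizontal axis), 1 point per array. In each row the 3 PTB shRNA points lie to the right of the 3 empty vector points, farthest for Tubb6 and least for Tuba4a.

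Ratios of Tubb6 to its relatives were taken after its value had been seen and are given without a test. Tubb6 had the lowest log2 difference of the isotypes with a cluster of their own. The mean of each ratio therefore had to be lower under PTB shRNA, and the ratios are not further evidence. The log2 ratio of Tubb6 to Tubb5 was -2.04, -2.11 and -2.19 in the controls and -3.00, -2.53 and -2.63 under PTB shRNA. On the deposited scale the change was -0.60 against Tubb5, -0.64 against Tubb2b, -0.95 against Tubb2a and -1.09 against Tuba4a. Each of these ratios was without overlap between groups. Against Tubb4b the change was -0.40 and the groups overlapped. These ratios were not taken after normalization, and how often the ratio of Tubb6 to other clusters separates the groups was not examined.

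The genes with the profile most like Tubb6 over the 6 arrays, out of 14806 searched, were Saal1, the HMG-box gene Bbx, the dual-specificity phosphatase gene Dusp3, Scand1 and the linker histone gene H1f2. Likeness was the root-mean-square distance between log2 profiles centred on their own means, which ran from 0.03 for Saal1 to 0.07 for H1f2. Saal1 measured 647, 658 and 775 in the controls and 309, 298 and 355 under PTB shRNA, a log2 difference of -1.07. A difference close to that of Tubb6 followed from the search, which picked genes for their likeness to it. For the Tubb3/Mc1r cluster the nearest were Ddc, Serpina3n, Clec12a, Fut2 and Dnajb5 at distances of 0.05 to 0.06. The first 4 of these were dim, with Ddc at 40 to 66 and Clec12a at -1 to 10. Dnajb5 measured 394, 381 and 526 against 629, 491 and 615. The search used the deposited scale only. After quantile normalization the log2 differences from Ddc to Dnajb5, in that order, were 0.07, 0.20, 0.13, 0.17 and 0.59. That of the Tubb3/Mc1r cluster was 0.64, so the likeness of the 4 dim genes did not hold on that scale.

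Of the other tubulin genes, 6 of 10 had a cluster of their own, and 2 fell and 0 rose (limma), beside 3.37% and 1.36% of all clusters. At an unadjusted p under 0.05, 4 were lower and 0 higher, beside 16.9% and 8.49%. Tuba8, an α isotype known from muscle and testis, measured 785, 594 and 858 in the controls and 381, 348 and 332 under PTB shRNA, with no overlap. Its log2 difference was -1.03 ± 0.16 (SE; limma, adjusted p = 0.0357), and -0.85 after quantile (0.0467) and -0.87 after cyclic loess normalization (0.0354). With a pseudocount of 1 Tuba8 did not pass (limma, adjusted p = 0.0549). Tube1, the ε-tubulin gene needed for stable centrioles, measured 578, 631 and 651 against 448, 381 and 439, a log2 difference of -0.54 ± 0.10 (limma, adjusted p = 0.0484, against 0.0756 after cyclic loess normalization and 0.0683 with a pseudocount of 1). The γ-tubulin genes Tubg1 and Tubg2, which nucleate microtubules and were picked out after their values were seen, had differences of -0.76 (adjusted p = 0.0686) and -0.68 (limma, adjusted p = 0.0743). Tubd1 was at -0.06 and Tubb4a, a brain β isotype, at signals of only 20 to 41.

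Enzymes that modify tubulin tails were centred near 0, with a median log2 difference of 0.03. Of 22 measured genes, 1 was higher and 0 lower (limma), beside 1.36% and 3.37% of all clusters, and 1 was higher and 3 lower at an unadjusted p under 0.05, beside 8.49% and 16.9%. After quantile normalization 2 were higher, Vash2 and the glutamylase gene Ttll1, which was picked out after its value was seen (0.12 on the deposited scale, adjusted p = 0.481, and 0.31 after quantile normalization, limma, adjusted p = 0.0437). Vash2, a carboxypeptidase that removes the terminal tyrosine of α-tubulin, measured 316, 309 and 349 in the controls and 591, 490 and 507 under PTB shRNA. It rose by 0.68 ± 0.11 on the log2 scale (SE; limma, adjusted p = 0.0367), 0.84 after quantile (0.0254) and 0.82 after cyclic loess normalization (0.0205), but did not pass with a pseudocount of 1 (limma, adjusted p = 0.0551). None of the 3 calls, Tuba8, Tube1 and Vash2, held with any 1 array left out. Its partner Svbp measured 83, 82 and 76 against 104, 119 and 79 (0.26, adjusted p = 0.330), and Ttl, the ligase that puts the tyrosine back, differed by -0.01 (limma, adjusted p = 0.985), values looked up after that of Vash2 was seen. Ttc5 measured 619, 778 and 727 against 831, 686 and 782, a difference of 0.11 (limma, adjusted p = 0.623).

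Genes that fold tubulin, nucleate microtubules or sever them gave no call on the deposited scale or after quantile or cyclic loess normalization, though each list gave lower calls when the dimmest clusters were dropped. On the deposited scale none of 7 folding cofactors, 13 subunits of the CCT chaperonin and prefoldin, 14 members of the γ-tubulin ring and augmin complexes or 6 severing enzymes passed. At an unadjusted p under 0.05 (limma), 4, 6, 7 and 1 of them were lower and 0 higher, beside 16.9% and 8.49% of all clusters. Most CCT and prefoldin clusters lay in the brightest 10%, of which 34.4% were lower at that threshold. The median log2 differences of the lists, in the same order, were -0.35, -0.34, -0.33 and -0.17 on the deposited scale. They were -0.13, -0.02, -0.16 and -0.01 after quantile normalization and -0.11, -0.06, -0.19 and -0.02 after cyclic loess normalization. The smallest adjusted p in each list belonged to Arl2, a GTPase of the folding cofactors (-0.59, adjusted p = 0.0876), the prefoldin subunit gene Vbp1 (-0.40, 0.0622), the augmin gene Haus1 (-0.77, 0.0761) and Fignl1, a relative of the severing enzyme fidgetin (-0.63, limma, adjusted p = 0.0945).

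**Figure D5:**
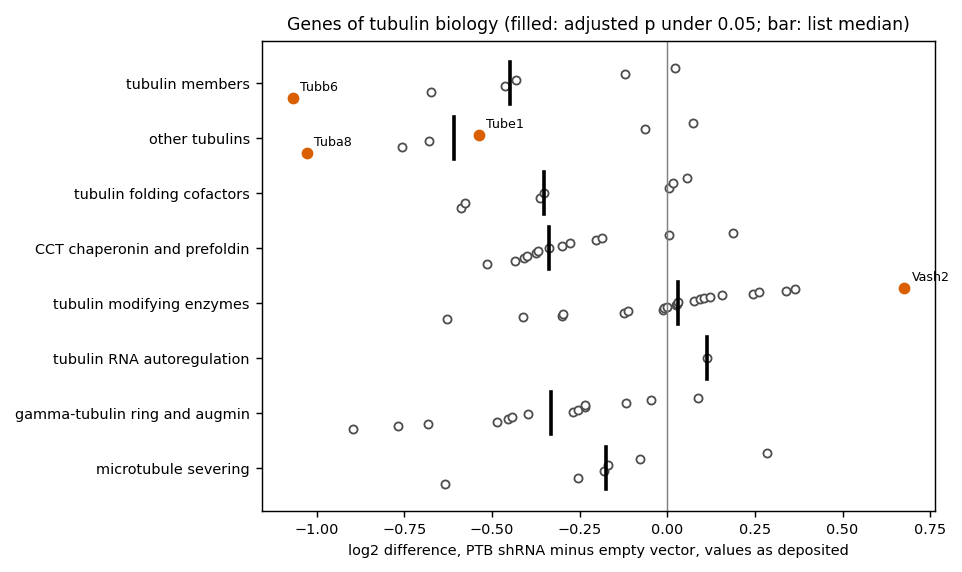
Log2 difference between PTB shRNA and empty vector on the deposited scale (horizontal axis) for every measured gene of the tubulin isotypes and of 7 lists of tubulin biology, with filled points at an adjusted p under 0.05 and a bar at each list's median. Tubb6, Tuba8 and Tube1 are filled on the negative side and Vash2 on the positive side.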

How the data were processed

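RNA from N2A cells treated with empty vector (3 arrays) or PTB shRNA (3 arrays) was depleted of ribosomal RNA and hybridised to exon arrays, as the labels' protocols state. The sample titles gave the groups and the replicate numbers. The deposited values are linear intensity per transcript cluster, whole numbers from -616 to 23431, for 17213 clusters. The submitters' processing notes name GCOS 1.3. The summary of probes, the background method and any scaling of arrays were not given in the sources used here. Of the clusters, 15146 carried 1 gene symbol, 1278 several and 789 none in the platform annotation.

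Negative intensities were replaced by 0 and the analysis used log2(signal + 16) without a further scaling step. Differences on this log2 scale of the deposited values understate changes of dim genes. Every cluster was fitted with limma 3.58.1 (R 4.3.3, lmFit and eBayes, 4 residual degrees of freedom), with Benjamini-Hochberg adjustment over all clusters and a threshold of 0.05; the fit was tested on simulated data. The number of arrays limits the precision. Alternatives were quantile, median and cyclic loess scaling, a pseudocount of 1 or 50, dropping the dimmest 30% or 50% of clusters, trend and robust eBayes, weighted arrays, a block on the replicate number, and fits without each array in turn. Ratios used the exact test of scipy 1.17.1, with the Tubb3/Mc1r cluster standing where a Tubb3 cluster had been planned; plots used matplotlib 3.10.9.

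Members and gene lists were chosen with earlier results of these data known. Named besides the members were, from each list, up to 3 genes past the threshold with the largest difference or else the gene with the smallest adjusted p, and the 5 nearest profiles; other genes were chosen after their values were seen. Promoter windows come from a table drawn from RefSeq (GRCm38.p6), in which 8 of the 10 members were matched; windows of the others were not used here.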

Additional observations from a re-analysis of the deposited data

How the results depend on the processing

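The count of 1 tubulin isotype lower became 2 without the dimmest 30% of clusters and 2 with trend and robust eBayes (Tubb4b joining Tubb6), 4 without the dimmest 50% (Tubb2b, Tubb4b, Tubb5 and Tubb6), and 0 without any 1 array. With the replicate number as a block (replicate block) it was 0, and Tubb6 had an adjusted p of 0.084 (limma). The labels do not say whether same-numbered arrays were paired. Deviations from the group means correlated at 0.232, 0.055 and 0.258 between same-numbered arrays. Between differently numbered arrays the correlations were lower, from -0.263 to 0.05. Pairing was not tested further, so the block fit stands beside the unpaired one. None of the 6 isotypes with their own cluster was called higher under any alternative run. Over all clusters, 580 were lower and 234 higher on the deposited scale. Lower and higher counts were 132 and 84 with a pseudocount of 1, 1429 and 503 without the dimmest 30%, 2145 and 390 without the dimmest 50%, 1502 and 463 with trend and robust eBayes, 1180 and 445 with array weights, and 0 and 0 with the block or without any 1 array. The lower count was 930 with a pseudocount of 50, and the higher counts were 506, 376 and 434 after quantile, median and cyclic loess scaling. Lower calls made up 71.3% of all calls as deposited, 49.2% after quantile and 51.2% after cyclic loess normalization. Signs turned for Tubb2a (0.078 after quantile, 0.058 after cyclic loess, and -0.245 to 0.022 without 1 array), for Tuba4a (-0.060 to 0.137 without 1 array), and for the shared clusters Tuba1c/Gm8973 (0.046 and 0.129), Tuba1b/Tuba1c/Gm5620 (0.029 and 0.092) and Tuba1a/Tuba1c/Gm5620 (0.226 and 0.200 after quantile and cyclic loess, -0.236 to 0.0034 without 1 array); the cause was not tested. Without any 1 array, and with the block, Tuba8, Tube1 and Vash2 also no longer passed. Lower calls among the γ-tubulin ring and augmin genes numbered 4, 7, 5 and 3 without the dimmest 30%, without the dimmest 50%, with trend and robust eBayes and with array weights, against 0 on the deposited scale. The same settings gave 1, 4, 2 and 2 for CCT and prefoldin (and 1 with a pseudocount of 50), 2, 1, 1 and 0 for the folding cofactors, 1, 1, 1 and 0 for the severing enzymes, 0, 2, 1 and 0 for the modifying enzymes and 4, 4, 4 and 4 for the other tubulins, whose count of 2 became 3 with median centring and 1 after cyclic loess normalization. No isotype has a second cluster of its own, so that alternative gave no value. The number of arrays, 3 per group, limits what could pass.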
